A study of Saccharomyces cerevisiae with 50 samples.

Results

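The phosphate regulon genes described here are 10 budding yeast genes chosen by their systematic names, of 6205 open reading frames in the deposited table. They are PHO5 (YBR093C), PHO11 (YAR071W), PHO12 (YHR215W), PHO8 (YDR481C), PHO84 (YML123C), PHO89 (YBR296C), SPL2 (YHR136C), VTC1 (YER072W), VTC3 (YPL019C) and VTC4 (YJL012C). All 10 were measured at enough time points to be tested, with 6063 genes tested in all. The cells were a yox1 mutant of Saccharomyces cerevisiae, held in G1 by alpha factor, a mating pheromone, and let go into the rich medium YEPD, and RNA was taken at 25 times from 0 to 120 min. Each time point was hybridised on 2 arrays, where its RNA carried Cy5 and an asynchronous wild-type YEPD culture carried Cy3. The design text calls the repeats technical, so both arrays of each time were reduced to their mean, and 1 course was followed. No wild-type course was analysed here, and 1 strain was followed, so nothing below separates the deletion from the cycle. Values are log2 ratios of the mutant to the reference, each array centred on its median. The deposited scale was taken as log10 with Cy5 over Cy3, which the sources do not state.

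Yeast cells take up inorganic phosphate through transporters in the plasma membrane and store it in the vacuole as polyphosphate. When phosphate runs low, the cyclin-dependent kinase Pho85 with its cyclin Pho80 is inhibited by Pho81, and the transcription factor Pho4 stays in the nucleus and, with Pho2, turns on the regulon. Its products are acid phosphatases secreted to the cell wall, a vacuolar alkaline phosphatase, phosphate transporters, the small protein Spl2 that limits low-affinity uptake, and the VTC complex that makes polyphosphate. PHO5 is a textbook case of a promoter opened by nucleosome removal, and the regulon is known to be expressed in mitosis in phosphate-rich medium.

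The deleted gene, YOX1, had log2 ratios from -2.25 to -0.02, under the reference on each of the 49 arrays with a value. All arrays measure ratios to a wild-type reference, so the mating type of the cells could not be read from marker levels. Titles place the arrays in array set 1 and array set 2, each with 25 arrays. In both sets the title date changes between 55 and 60 min, except that 120 min in set 1 shares the date of the earlier times and 10 min in set 2 that of the later times. In set 2 the date also changes between 15 and 20 min, inside the window called first late G1 below. What the date records is not stated. The samples of 25, 40 and 55 min stood apart: the SD of log2 ratios over genes was 0.74 to 1.23 on their 6 arrays and 0.33 to 0.83 on the other 44. Calls of members and lists that differ without these times are given beside the main ones. One set 2 array is titled 75 min but has 0 min in its source name, and 3 set 2 arrays carry an M in the title. Time points stand in for replicates throughout, so the p-values rest on how time points scatter and not on the spread between cultures.

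**Figure D1:**
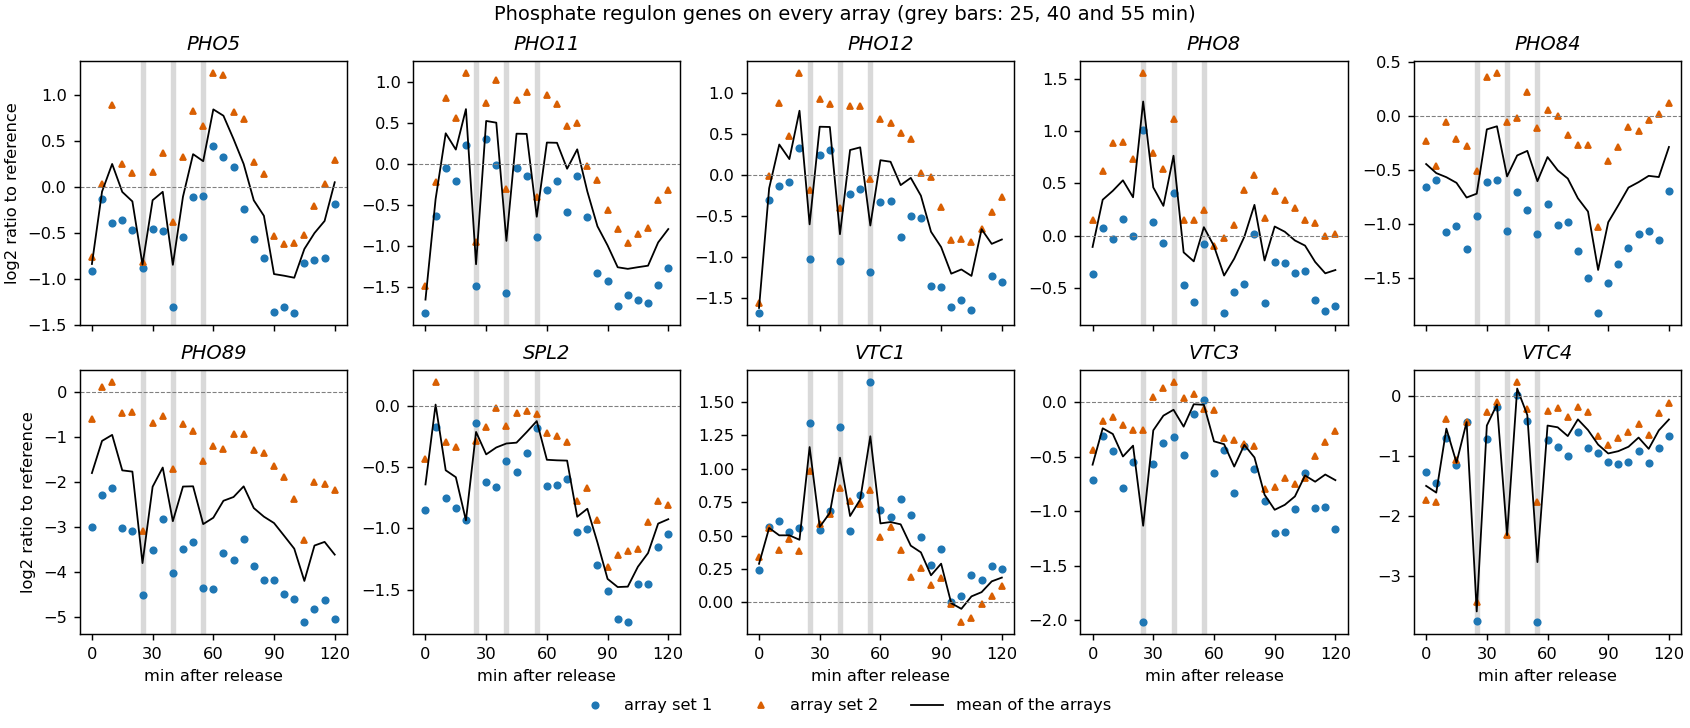
Log2 ratio to the reference (vertical axis; each panel has its own scale) against min after release for each of the 10 genes, with points for array set 1 and array set 2 and a line for the mean of the arrays. PHO5 has its highest mean, 0.84, at 60 min and its lowest, -0.99, at 100 min, and the sets run in parallel at different levels for most genes.

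PHO5, PHO84 and SPL2 were called periodic, and the other 7 genes were not. The test was limma's moderated F-test of a cosine and a sine at a period of 71 min beside a linear trend, with Benjamini-Hochberg adjustment over all genes and a threshold of 0.01. It called 3 of the 10 members, against 13.3% of all 6063 genes. The period was fitted on 79 cell cycle marker genes and was the same in each array set alone. The peak-to-trough size, the full height of the fitted wave, had a median of 0.56 over the members and 0.30 over all genes tested. With a period of 71 min and a course of 120 min, the second wave was sampled only in part. Without 25, 40 and 55 min PHO8 was called as well, 4 of 10 against 25.2% of all genes.

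**Figure D2:**
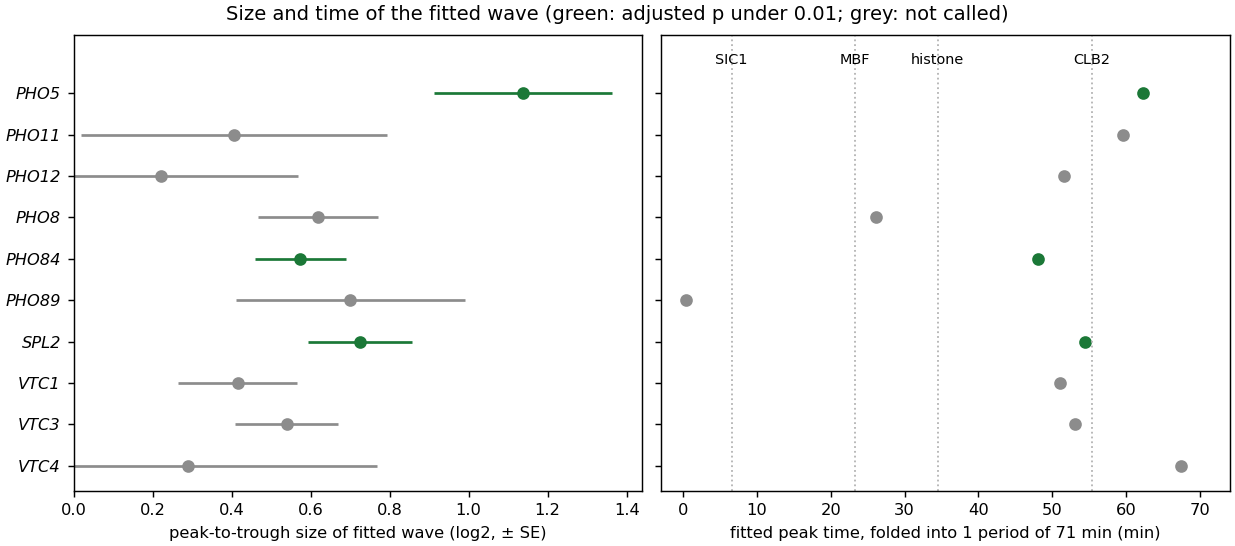
Left, peak-to-trough size of the fitted wave (log2, error bars ± SE); right, fitted peak time in min folded into 1 period, with dotted lines at the mean peak times of the SIC1, MBF, histone and CLB2 lists. The periodic genes (green) are PHO5, PHO84 and SPL2, with peaks at 62.2, 48.0 and 54.4 min on either side of the CLB2 list at 55.4 min.

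Among the phosphatases, PHO5 had the widest wave of the 10 genes. PHO5 encodes the main secreted, repressible acid phosphatase. Its log2 ratio ran from -1.37 to 0.45 in array set 1 (median -0.48) and from -0.81 to 1.24 in array set 2 (median 0.17). Both sets were highest at 60 min, with 0.45 and 1.24, the first time after the change of title date. At 55 min, before it, they had -0.10 and 0.66. Set 1 was lowest at 100 min, with -1.37, and set 2 at 25 min, with -0.81. At 95 min they had -1.31 and -0.63. The mean of the arrays was -0.11 at 45 min, 0.84 at 60 min, 0.77 at 65 min, 0.25 at 75 min, -0.95 at 90 min, -0.99 at 100 min and 0.05 at 120 min. Earlier it was -0.84 at 0 min, 0.25 at 10 min and between -0.16 and -0.05 at 15, 20, 30 and 35 min. It was -0.85 at 25 and at 40 min, times that stood apart. Thus 1 rise and fall was seen between 45 and 100 min. A second rise was under way when sampling ended, with -0.37 at 115 min, before set 1 returned to the earlier title date. The fitted size was 1.14 ± 0.22 (SE, 25 time points; limma adjusted p = 0.00252), with 197 of 6063 genes having a larger one. The peak was fitted at 62.2 min, and at 62.1 min in set 1 and 62.3 min in set 2. PHO5 kept its call in each set alone (adjusted p = 0.00224 and 0.00893) and without any single time point, with the highest adjusted p, 0.00983, without 60 min. A second harmonic in the model ended it (adjusted p = 0.0164).

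PHO11 and PHO12 encode further secreted acid phosphatases, and the pair moved as one, with Pearson's r of 0.97 over 25 time points. They are near-identical copies, so each feature may read both transcripts, and PHO5 and its neighbour PHO3 are close relatives. PHO11 lay at -1.66 at 0 min, its lowest mean, at 0.37 at 10 min, at 0.66 at 20 min, its highest, at 0.26 at 60 min and at -1.28 at 100 min. The values at 0 min were the lowest of the course in both sets for both genes: -1.82 and -1.50 for PHO11, and -1.68 and -1.57 for PHO12. At 10 min they were -0.06 and 0.80 for PHO11 and -0.13 and 0.88 for PHO12. From 10 to 75 min, leaving aside 25, 40 and 55 min, PHO11 lay between -0.06 and 0.66 and PHO12 between -0.12 and 0.79. From 20 min, the highest mean of each, they had gone down to -0.06 and -0.12 by 70 min. By 95 min the means were -1.27 and -1.21. This shape is not a cosine at 71 min, and neither gene was called periodic (sizes 0.41 ± 0.39 and 0.22 ± 0.35 (SE), adjusted p = 0.723 and 0.885).

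PHO8 encodes the vacuolar alkaline phosphatase. Its course was unlike those of the acid phosphatases, with the higher values early: 0.43 at 10 min, 0.53 at 15 min and 1.29 at 25 min, against -0.38 at 65 min and -0.33 at 120 min. The set values at 25 min, one of the times that stood apart, were 1.01 and 1.56, the highest in each set. The fitted peak was at 26.2 min, with a size of 0.62 ± 0.15 (SE), and the call was just missed (adjusted p = 0.0141). Without 25, 40 and 55 min PHO8 was called with a size of 0.54 and a peak at 22.1 min (adjusted p = 0.00113). Set 1 has no PHO8 value at 60 min. A fit on single arrays, with array set as a factor and the arrays of a time as a correlated block, also called it (adjusted p = 0.000136), but it adds arrays of the same samples and no further samples.

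Of the transporters, PHO84 was periodic and PHO89 was not. PHO84 encodes the high-affinity proton-coupled phosphate transporter. Its log2 ratio ran from -1.82 to -0.59 in set 1 (median -1.07) and from -1.03 to 0.40 in set 2 (median -0.11). Both sets were highest at 35 min and lowest at 85 min, and the mean went from -0.09 to -1.43 between these times and back to -0.29 at 120 min. It was -0.56 at 115 min. From 115 to 120 min, where set 1 returns to the earlier title date, set 1 went from -1.15 to -0.69. Set 2, with no change of date there, went from 0.02 to 0.12. The fitted wave had a size of 0.57 ± 0.11 (SE, limma adjusted p = 0.00211) and a peak at 48.0 min, 49.2 min in set 1 and 46.8 min in set 2. The trough at 85 min was thus sharper than the peak. Adjusted p stayed under 0.01 in each set alone (0.00771 and 0.00852), without any single time point (up to 0.00536, without 85 min), and with a second harmonic (0.00488), but was 0.0388 without the trend.

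PHO89 encodes the sodium-coupled phosphate transporter, known to work at alkaline pH. It lay lowest of the 10 genes against the reference and ended lower than it began, with no called wave (size 0.70 ± 0.29 (SE), adjusted p = 0.182). In set 1 it ran from -5.11 to -2.12 (median -3.86) and in set 2 from -3.29 to 0.22 (median -1.25). Both sets were highest at 10 min and lowest at 105 min. The trend fitted beside the wave was -1.80 ± 0.35 (SE) over the 120 min, and 32 of 6063 genes had a more negative one; this trend was not tested.

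SPL2 encodes a small protein that restrains the low-affinity phosphate transporters. It ran from -1.76 to -0.14 in set 1 (median -0.83) and from -1.31 to 0.19 in set 2 (median -0.31). Its highest mean was 0.01 at 5 min, where set 2 was highest, while set 1 was highest at 25 min. The mean was -0.93 at 20 min, -0.31 at 40 min, -0.12 at 55 min, -0.45 at 70 min, -1.11 at 85 min, -1.48 at 95 min and -0.92 at 120 min. Values from 90 to 105 min were below those of every earlier time in both sets. The S window (-0.31) and the G2/M window (-0.31) were level. The fitted size was 0.72 ± 0.13 (SE), the peak of the fitted cosine at 54.4 min, and limma's adjusted p 0.00103, the lowest of the members. The trend over the course was -1.18 ± 0.16 (SE), more negative than in all but 122 genes. The call rests on fitting that trend: without it adjusted p was 0.150, and with a period 5 min shorter 0.0128. With 2 harmonics it was 0.0103. The mean at 20 min is the set 1 value alone, since set 2 has none there.

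The VTC genes encode subunits of the vacuolar transporter chaperone complex, in which Vtc4 carries the polyphosphate polymerase. None of the 3 was called periodic, and their courses differed. VTC1 lay above the reference at 23 of 25 time points, between 0.00 and 1.65 in set 1 and between -0.15 and 0.98 in set 2, with its lowest means, -0.01 and -0.05, at 95 and 100 min. VTC3 lay below it at all 25, with -0.02 at 50 min and -0.99 at 90 min. Its lowest mean was -1.13 at 25 min, where set 1 had -2.02 and set 2 -0.25. The fitted peaks of VTC1 and VTC3 were at 51.1 and 53.1 min, with sizes of 0.42 ± 0.15 and 0.54 ± 0.13 (SE, adjusted p = 0.110 and 0.0108). VTC3 crossed the threshold in set 2 alone (adjusted p = 0.000864) but not in set 1 alone (0.117), and also when any one of 0, 25, 75, 80 and 120 min was left out. VTC4 had a size of 0.29 ± 0.48 (SE, adjusted p = 0.898), and its spread was that of 3 times: -3.60 at 25 min, -2.33 at 40 min, where only set 2 has a value, and -2.77 at 55 min. At the other 22 times its mean lay between -1.62 and 0.12.

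The wave was set beside genes of known phase. The CLB2 list, genes of G2 and mitosis, had 15 periodic members with a mean peak at 55.4 min, the SIC1 list, genes of mitotic exit, 12 members at 6.57 min folded into the period, the MBF list of late G1 had 19 members at 23.3 min, and the histone list of S phase 8 members at 34.5 min. PHO5 peaked 60 min after release, when the centred median of the CLB2 list was also at its highest (0.97), and its values were going down while the SIC1 list went up to 1.78 at 80 min. The fitted cosine of SPL2 peaked at 54.4 min, near the mean of the CLB2 list, but its highest observed mean was at 5 min. The fitted peak of PHO84, 48.0 min, came before the CLB2 mean and its highest observed mean, at 35 min, earlier still. The trough of PHO5 and SPL2 at 95 and 100 min fell where histones had their second maximum, 1.01 at 95 min. In the first cycle, histones were high from 25 to 40 min. The mean of SPL2 there lay between -0.40 and -0.21, while that of PHO5 was -0.85 at both 25 and 40 min and -0.15 and -0.05 at 30 and 35 min. These times are fitted or observed values with no test between genes.

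**Figure D3:**
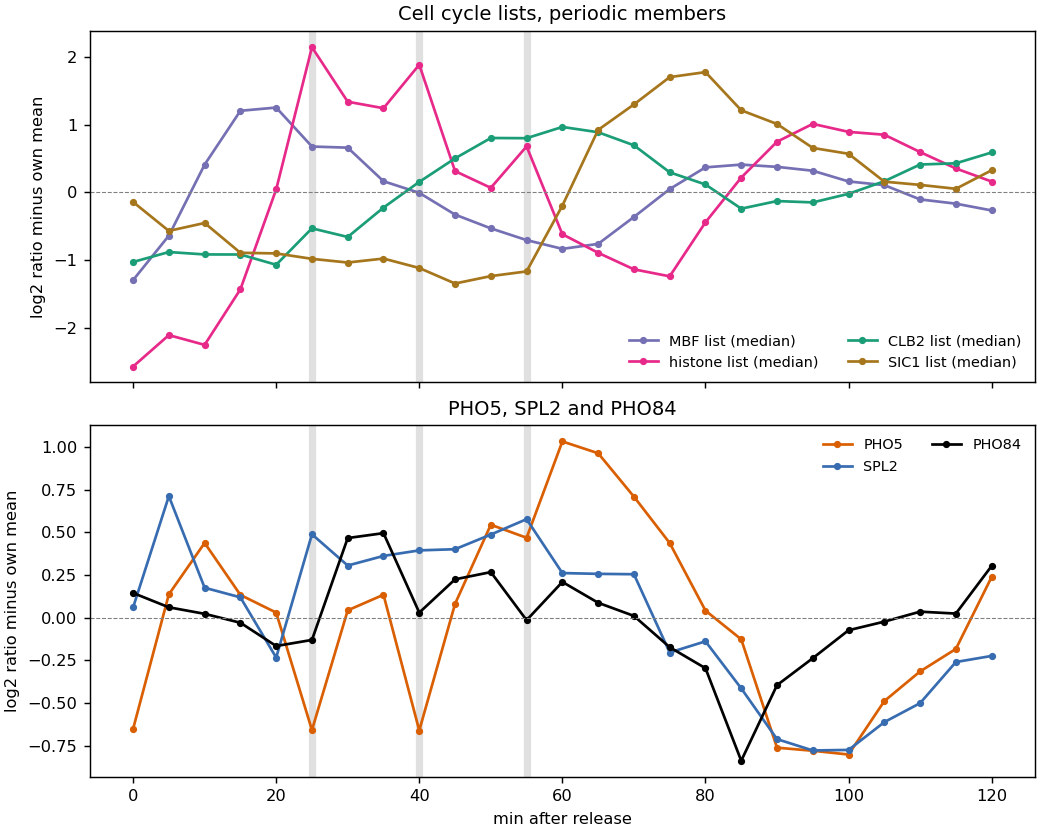
Log2 ratio minus the profile's own mean against min after release: above, the median of the periodic members of the MBF, histone, CLB2 and SIC1 lists; below, PHO5, SPL2 and PHO84, with 25, 40 and 55 min shaded. PHO5 and the CLB2 list are both highest at 60 min, and the higher values of PHO5, SPL2 and PHO84 after 100 min stand beside the second upturn of the CLB2 list.

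Windows of the course were then compared, each with 3 or 4 time points: arrest (0 to 10 min), first late G1 (15 to 30), S (35 to 45), G2/M (50 to 65), M/G1 (70 to 85), second late G1 (90 to 105) and second S/G2 (110 to 120). The names are labels only. In the second cycle the centred median of the MBF list was highest at 85 min (0.41), inside M/G1. That of the histone list was highest at 95 min (1.01) and still 0.85 at 105 min. The window called second late G1 thus held the second histone maximum, a mark of S phase. In limma's fit, 0 of the 10 members passed any of 5 contrasts at an adjusted p under 0.01. For M/G1 against second late G1, limma called 0 of 6063 genes higher (0%) and 0 lower (0%). At an unadjusted p under 0.05 it had 441 genes (7.27%), 5 of them members: PHO5, PHO11, PHO12, PHO89 and SPL2. PHO5 averaged 0.08 ± 0.38 (SD, n = 4 time points) in M/G1 and -0.90 ± 0.15 in second late G1, a difference of 0.97 ± 0.24 (SE, limma adjusted p = 0.124). PHO11 averaged -0.25 and -1.20, a difference of 0.95 ± 0.41 (SE, adjusted p = 0.562). SPL2 averaged -0.83 and -1.42, a difference of 0.59 ± 0.16 (SE, adjusted p = 0.162). The M/G1 and second late G1 windows of PHO5, PHO11, PHO12 and SPL2 did not overlap in either set. How many of all genes had no overlap was not counted, so this is a description only.

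Both windows of that contrast lie within 1 title date in each set. Within the date of set 2, where limma called 89 of 5975 genes (1.49%), PHO5 (1.07, adjusted p = 0.00345), PHO11 (0.98, adjusted p = 0.00617) and PHO12 (0.93, adjusted p = 0.00517) passed. Within the date of set 1 the differences were 0.88, 0.93 and 0.75, and limma called 0 of 5875 genes. Without 25, 40 and 55 min the fit over the whole course called 1 of 6065 genes (0.0165%) and 0 members. Adjusted p was then 0.0246 for PHO5, 0.0816 for PHO11, 0.0472 for SPL2 and 0.0422 for PHO89. The difference between the sets' contrasts did not pass for any member (lowest adjusted p = 0.972).

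The remaining contrasts called no member either. M/G1 was higher than arrest for 1.76% of genes and lower for 3.2%, with PHO89 at -1.17 ± 0.40 (SE, adjusted p = 0.0743); without 25, 40 and 55 min it was the 1 of 10 members called (adjusted p = 0.00278), against 15.1% of all genes. M/G1 was higher than first late G1 for 2.05% and lower for 2.77%, with PHO8 at -0.71 ± 0.20 (SE, adjusted p = 0.0217). M/G1 was higher than G2/M for 0.297% and lower for 0%; the difference was -0.49 ± 0.24 for PHO5, -0.52 ± 0.16 for SPL2 and -0.46 ± 0.16 for PHO84 (adjusted p = 0.393, 0.141 and 0.201). G2/M was higher than S for 0% and lower for 0.0165%, and PHO5 stood at 0.90 ± 0.26 (SE, adjusted p = 0.172). At an unadjusted p under 0.05 the members numbered 3, 2, 4 and 2 in these contrasts, in the order given, against 22.6%, 28.1%, 13.4% and 11.3% of all genes. First and second late G1 differ in title date, and PHO5 averaged -0.30 in the first and -0.90 in the second, PHO11 0.03 and -1.20, and SPL2 -0.53 and -1.42. M/G1 also differs in title date from first late G1 and, apart from 10 min in set 2, from arrest. Date and cycle cannot be told apart in these comparisons, for members or for the list genes below. The G2/M window spans a change of title date in both sets, so title date enters its contrasts with M/G1 and with S in part. Within 1 title date, where G2/M keeps 2 time points, PHO5 in M/G1 stood at -0.73 against G2/M in set 1 and -0.74 in set 2. For G2/M against S its difference within 1 title date was 0.67 in set 1 and 0.64 in set 2.

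**Figure D4:**
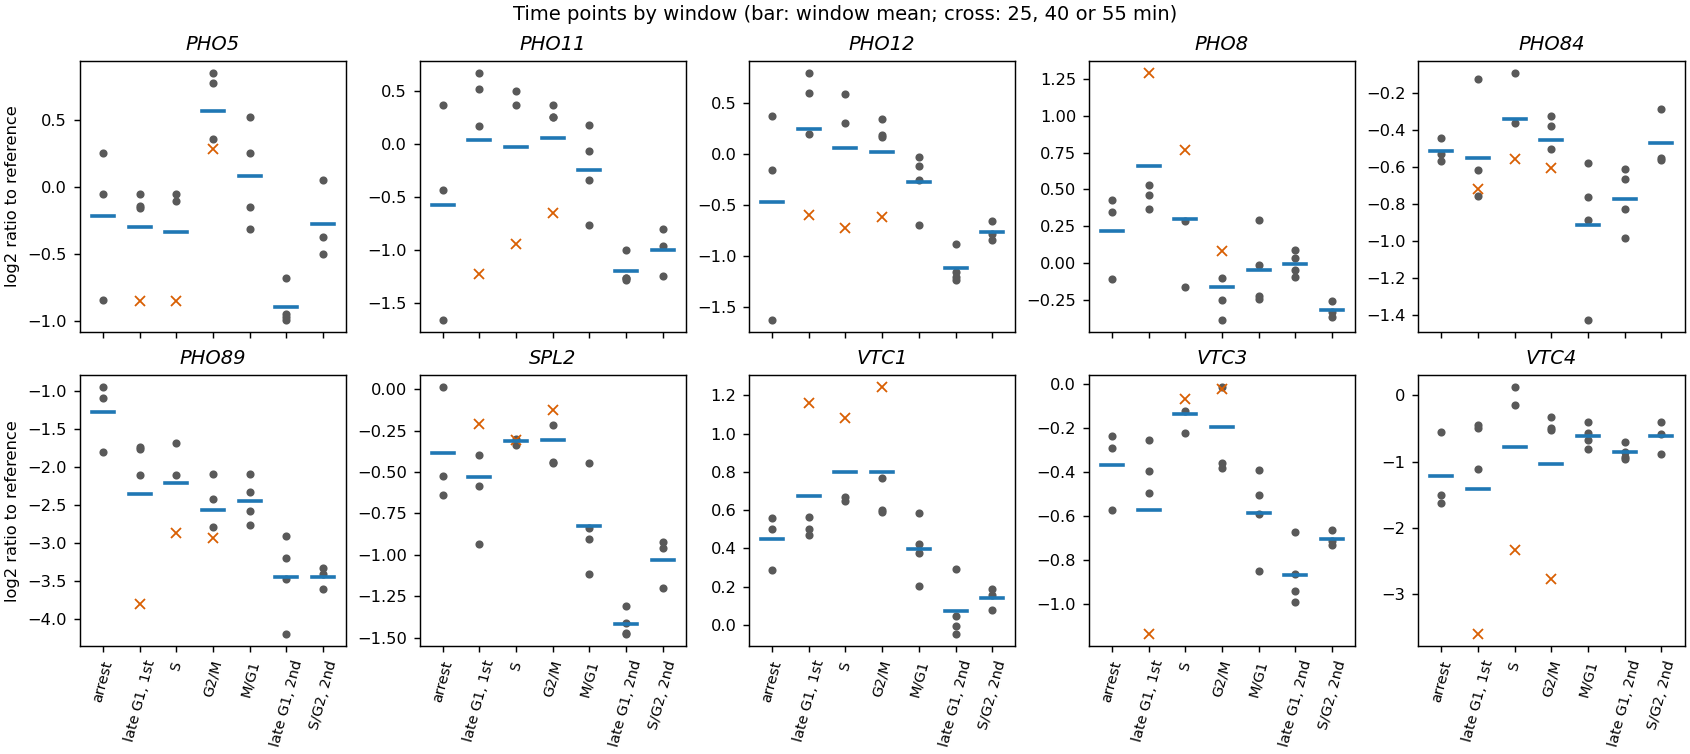
Mean log2 ratio of the arrays at each time point (points), grouped by the 7 windows, with the window mean as a bar and 25, 40 and 55 min as crosses; vertical scales differ between panels. PHO5 is highest in G2/M (0.56) and lowest in second late G1 (-0.90), and the crosses stand away from the other times for VTC4, PHO11 and PHO12.

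Against the asynchronous wild type, PHO89 was the 1 member that passed limma's test of the mean against a fold change of 1.5. The mean tested here is the level fitted beside the wave and the trend. The plain average over time points differed somewhat, with -0.19 for PHO5 and 0.10 for PHO8. The test called 1.83% of genes higher and 3.22% lower. PHO89 had a mean of -2.54 ± 0.10 (SE, adjusted p = 5.61e-14), and 5 of 6063 genes lay lower. It was called in each set alone, with -3.81 in set 1 and -1.27 in set 2. Lower means that did not pass were found for VTC4 (-0.93 ± 0.17), SPL2 (-0.66 ± 0.04), PHO84 (-0.57 ± 0.04), VTC3 (-0.47 ± 0.04), PHO11 (-0.39 ± 0.13) and PHO12 (-0.31 ± 0.12). PHO5 was at -0.12 ± 0.08 and PHO8 at 0.06 ± 0.05, while VTC1 lay higher at 0.50 ± 0.05. In set 1 alone, PHO84 (-1.02, adjusted p = 1.56e-08) and SPL2 (-0.83, adjusted p = 0.000532) passed as well. No array had the dyes exchanged, and the reference stands for 1 control sample, so its own spread is left out.

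The level of most members depended on the array set. PHO89 was higher in set 2 than in set 1 at 25 of 25 time points, by 2.51 ± 0.36 (SD), and 3 of 5705 genes had a larger positive difference. PHO84 followed with 0.90 ± 0.26, PHO12 with 0.84 ± 0.29, PHO11 with 0.82 ± 0.25, PHO5 with 0.69 ± 0.29 and PHO8 with 0.67 ± 0.13, each higher in set 2 at every time point with both values. Among all genes the median difference was -0.01, with the 5th percentile at -0.52 and the 95th at 0.56. SPL2 (0.36), VTC3 (0.41) and VTC4 (0.38) lay within that range, and VTC1 (-0.18) was the 1 member higher in set 1. The shape over time was closer: Pearson's r between the sets over 24 or 25 time points was 0.95 for PHO8, 0.94 for PHO11 and SPL2, 0.92 for PHO12, 0.91 for PHO89, 0.88 for PHO5, 0.87 for VTC4, 0.85 for VTC1, 0.65 for PHO84 and 0.52 for VTC3, against a median of 0.64 over all genes. Both sets measure samples labelled with the same times, so these values describe the arrays and not independent cultures. The part of the reference RNA in the level difference was not tested.

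The members also differed at the times that stood apart. Averaged over 25, 40 and 55 min, the difference of VTC4 from the mean of its neighbouring times was -2.60, and 54 of 5869 genes had a more negative one. The difference was -1.38 for PHO11, -1.11 for PHO89 and for PHO12, and -0.59 for PHO5. It was 0.61 for PHO8, 0.54 for VTC1 and 0.22 for SPL2. On single arrays the difference of VTC4 was -3.17 and -3.09 at 25 min, -2.38 at 40 min in set 2, and -3.19 and -1.54 at 55 min. PHO11 was lower on all 6 arrays and VTC1 higher on all 6. Histones, at the same times, showed higher centred medians than at both neighbours (2.14 at 25 min, 1.88 at 40 min, 0.68 at 55 min). The part of RNA quality in these values was not tested.

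Profiles of the members were alike only in part. SPL2 and VTC1 had r = 0.85, SPL2 and VTC3 0.69, PHO5 and PHO11 0.75, PHO5 and SPL2 0.53, and PHO84 and PHO5 0.32 over 25 time points. PHO8 and VTC4 had -0.61, and VTC1 and VTC4 -0.55. Without 25, 40 and 55 min the values were 0.90 for SPL2 and VTC1, 0.88 for SPL2 and VTC3, 0.70 for PHO5 and SPL2, 0.86 for PHO11 and VTC1, and 0.36 for VTC1 and VTC4. VTC1 and VTC3 had 0.54 over 25 time points, 0.28 in set 1 alone and 0.87 without those times. The sign for VTC4 turned without those times with VTC1, SPL2 and PHO89, and stayed negative with PHO8 (-0.17). All values share the arrays, the reference and neighbouring times, and are a description.

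**Figure D5:**
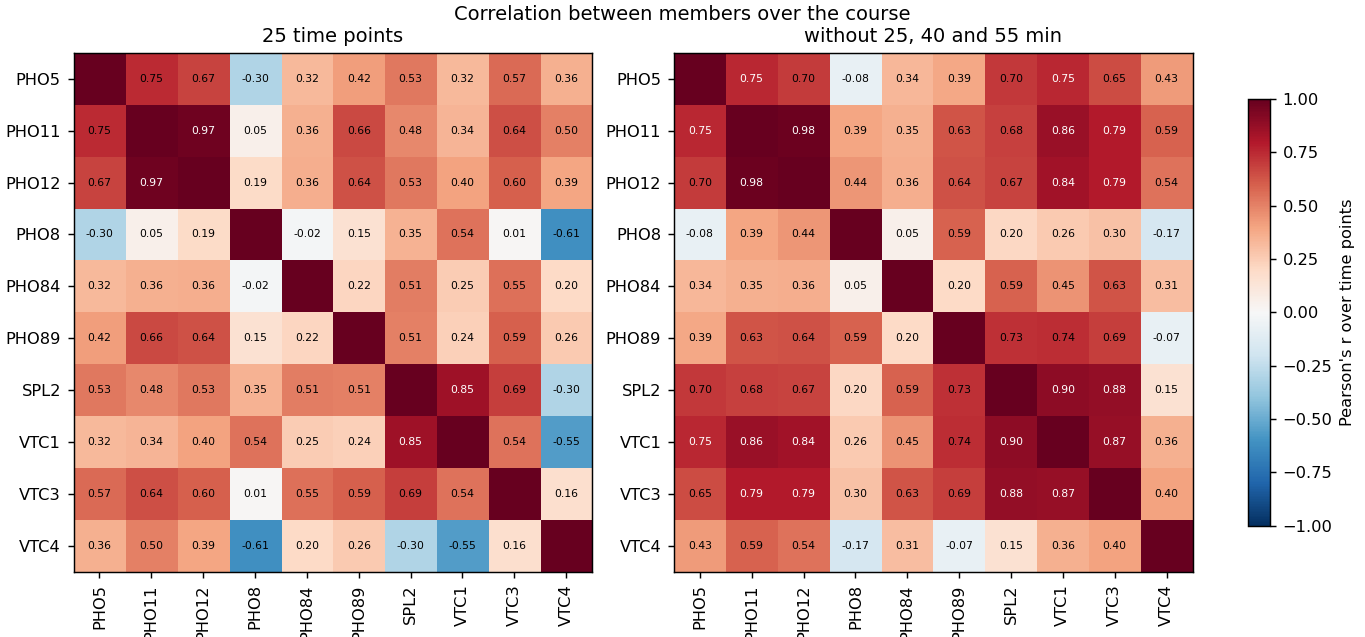
Pearson's r between the profiles of the 10 genes (rows and columns), over 25 time points on the left and without 25, 40 and 55 min on the right; red is positive and blue negative. VTC4 and VTC1 go from -0.55 to 0.36 between the panels, while PHO11 and PHO12 stay at 0.97 and 0.98.

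The genes outside the list with the most similar profile were PHO3, MET2, EAF1, EIS1 and MMP1 for PHO5 (r from 0.70 to 0.82 over 25 time points). PHO3, the constitutive acid phosphatase next to PHO5, led with r = 0.82, a size of 0.98 ± 0.23 (SE), a peak at 60.3 min and an adjusted p of 0.0101; its sequence relation to PHO5 means that the 2 features may share signal. For SPL2 they were YNL276C, YKL153W, VTC2, SOL3 and MET14 (r from 0.82 to 0.88), among them VTC2, a further VTC subunit, at 0.87. For PHO84 they were the Hsp110 chaperone gene SSE1 (0.79), MEI4, SNF2, the chaperone-linked CPR6, and MNT4 (0.70). These are the highest values over all genes tested, and are given without a test.

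Other genes of phosphate metabolism were read from lists. Of 12 regulators 1 was periodic, against 13.3% of all genes: KCS1, which encodes an inositol hexakisphosphate kinase, with a size of 0.59 ± 0.10 (SE), a peak at 43.7 min and an adjusted p of 0.000599. The upstream regulators were not called, with PHO81 at 0.33 ± 0.12 (adjusted p = 0.136), PHO4 at 0.45 ± 0.39 (0.664), PHO80 at 0.17 ± 0.10 (0.448) and PHO85 at 0.34 ± 0.24 (0.540). Next in size to PHO4 were CBF1, at 0.40 ± 0.25 (adjusted p = 0.458), and PHO86, at 0.35 ± 0.09 (adjusted p = 0.0215). Against the reference 1 of 12 was lower, the phospholipase C gene PLC1 (-0.84 ± 0.04, adjusted p = 1.47e-05), and in the window contrasts 0 of 12 passed limma's test. Without 25, 40 and 55 min 2 of 12 passed between M/G1 and arrest, against 15.1% of all genes: PHO4 was higher in M/G1 by 1.56 (adjusted p = 0.00927), and PHO80 was lower, at -0.44 (adjusted p = 0.00240).

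Of 20 further transport, polyphosphate and phosphate-responsive genes, 3 were periodic, again against 13.3%: the low-affinity transporter gene PHO90 (0.55 ± 0.09 (SE), peak at 60.4 min, adjusted p = 0.000241), the VTC subunit gene VTC5 (0.63 ± 0.12, 50.9 min, 0.00193) and SYG1, which carries an SPX domain (0.60 ± 0.11, 55.0 min, 0.00127). Between M/G1 and arrest 3 of 20 passed, against 1.76% of all genes higher and 3.2% lower: the low-affinity transporter gene PHO87 was higher by 0.79 ± 0.19 (adjusted p = 0.00737), and the phosphatase gene PHM8 (-0.89 ± 0.19, adjusted p = 0.00322) and the glycerophosphoinositol transporter gene GIT1 (-1.73 ± 0.33, adjusted p = 0.00164) were lower. Between M/G1 and first late G1 PHO87 (0.83 ± 0.17, adjusted p = 0.00317) and PHO90 (0.49 ± 0.11, adjusted p = 0.00453) were higher, 2 of 20 against 2.05% of all genes higher. In both contrasts the windows differ in title date, apart from 10 min in set 2, so date and cycle cannot be told apart. GIT1 was also the 1 of 20 below the reference, at -1.76 ± 0.10 (adjusted p = 2.56e-09). PHM8 had a wave of 0.59 ± 0.22 that was not called (adjusted p = 0.124). Without 25, 40 and 55 min 8 of 20 passed between M/G1 and arrest, 2 higher and 6 lower, against 15.1% of all genes. Added to the 3 above were PPN1 (higher) and VTC2, PHM7, PPN2 and GPP2 (lower). In that setting 5 of 20 passed between M/G1 and first late G1, against 10.7%, with PHM7, GIT1 and GPP2 lower beside PHO87 and PHO90. GPP2 was then also periodic (4 of 20 against 25.2%). PHM6 was also below the reference (-0.83, limma adjusted p = 0.00303), making 2 of 20 against 5.59% of all genes called in either direction.

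Of 8 genes for chromatin factors known at the PHO5 promoter, 2 were periodic, against 13.3% of all genes. The histone chaperone gene ASF1 had a size of 1.60 ± 0.22 (SE) with a peak at 21.7 min (adjusted p = 5.34e-05), and BRE1, a histone H2B ubiquitin ligase gene, 0.38 ± 0.08 at 47.1 min (adjusted p = 0.00236). ADA2 (0.46 ± 0.11, adjusted p = 0.0116) and the acetyltransferase gene GCN5 (0.34 ± 0.09, adjusted p = 0.0127) just missed the threshold. In the window contrasts and against the reference 0 of 8 passed limma's test. With 25, 40 and 55 min left out 4 of 8 were periodic, with ADA2 and SPT3 added, against 25.2% of all genes. In that setting 1 of 8, SNF2, was lower in M/G1 than in arrest (-0.54, limma adjusted p = 0.00904). Of all genes 15.1% were called there.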

How the data were processed

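The authors deposited 1 value per feature and array, taken here as a log10 ratio of Cy5 over Cy3, since the values end at -2 and 2; base and direction are not stated. The scanner, the spot filters and the normalization steps were not given in the sources used here. Spot intensities were not used, so the depth is unknown, and precision is limited by the number of arrays. The table has 6217 rows, of which 12 controls were dropped. The 212 values at either limit became missing, and the log10 ratios were converted to log2. The median of every array was then subtracted, and both arrays of each time were reduced to their mean. Genes with 20 or more time points were tested with limma 3.58.1 in R 4.3.3, and figures used matplotlib 3.10.9 in Python 3.11.15. P-values were adjusted over all genes. Names come from a table of assembly R64, with no coordinates, as the file names no build. The members, lists, windows and the rule for named genes were chosen with earlier results of these data known. The rule names all members, list genes that pass a test, the 4 of largest size per list, and the 5 most similar genes for PHO84, PHO5 and SPL2. The self-test simulated 6063 genes, gave 200 of them a wave of size 1 and recovered 77.5% of those. Of M/G1 steps of size 1 given to 200 genes, 67.5% were recovered against second late G1. Noise was drawn independently for each time point from the spread left by the wave fit, with steps flat within the window. Real neighbouring time points may be correlated, so the rates hold for that setting and may not carry over to the real contrasts. No outside sequences were used here. Alternatives covered array sets, centring, scaling, filters, period, trend, windows and title date.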

Additional observations from a re-analysis of the deposited data

How the results depend on the processing

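The count of 3 periodic members stayed within 1.5 times under most alternatives. It was 6 with arrays scaled to the same spread (20% of all genes called) and 5 at a threshold of 0.05 (23.8%). It was 1 without the linear term (PHO5, 9.96% of all genes) or with 2 harmonics (PHO84, 8.26%). With 1 array set left out it was 5 in set 2 alone (11.6% of all genes) or 3 in set 1 alone (9.76%). With 1 time point left out it was 3 or 4, where the share of all genes was not counted. With array set as a factor on single arrays (replicate block), 4 members were periodic (14.6% of all genes). In that fit 1 member, PHO8, was lower in M/G1 than in first late G1 (6.6% of all genes called). PHO8 was also the 1 member lower there at a threshold of 0.05 (12.9%). In the single-array fit the block is the time point, which ties the 2 arrays of a time, and array set is a fixed factor. Array sets share labelled times and no stated culture. Between M/G1 and arrest 1 member was called without 25, 40 and 55 min (15.1% of all genes). For M/G1 against second late G1, 3 members were called within 1 title date of set 2 (1.49%). Against the reference 3 members were called in set 1 alone (10.4% of all genes), 1 in set 2 alone (2.88%), and 6 at a fold change of 1 (65.6%). Over all genes, the periodic count of 805 became 1529 without 25, 40 and 55 min, 1443 at a threshold of 0.05, 1213 with scaled arrays and 501 with 2 harmonics. Of all genes, 301 were called between M/G1 and arrest, with 914 without 25, 40 and 55 min, 579 at a threshold of 0.05, 162 in set 1 alone, 163 with title date as a factor and 156 with narrower windows. Between M/G1 and first late G1 the 292 genes became 781 at a threshold of 0.05, 648 without those times, 190 with narrower windows, 130 in set 1 alone and 108 with title date as a factor. Between M/G1 and second late G1 the 0 genes became 15 with title date and 13 with array set as a factor, 5 at a threshold of 0.05, 4 with scaled arrays and 1 without those times. Between M/G1 and G2/M the 18 genes ranged from 0 within 1 title date to 61 with array set as a factor, and between G2/M and S the 1 gene ranged from 0 to 19. Against the reference the 306 genes became 606 in set 1 alone, 172 in set 2 alone, 66 at a fold change of 2 and 3978 at a fold change of 1. No called member changed sign. The causes were not tested. Signal over background is unknown.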
